A study of Danio rerio with 8 samples.

Results

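RNA-seq of whole zebrafish embryos was used to describe the genes that lie around *fmr1* on chromosome 14. A gene was taken as a member if the deposited count table placed its smallest start on chromosome 14 between 15 and 25 Mb of GRCz11 and if 4 or more of the 8 libraries gave it over 1 count. The table held 161 genes of this window. Of these, 34 did not reach the minimum of counts, and *fmr1* and *smtnl1* were left out, so that 125 of the 23567 genes tested were members. A name was found for 122 of the members. A known role, from the gene itself or from its mammalian counterpart, could be given to 103 of them.

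Each of the 8 libraries came from 1 clutch of embryos at 2 days post-fertilization (dpf), raised in E3 medium and pooled before extraction, and no parent contributed to more than 1 clutch. The mutant clutches, named S2, S4, S5 and S8, carried 2 copies of hu2787 (written h2787 in the labels), a non-sense allele of *fmr1*. The wild type clutches were named A, D, G and L. Both sets of parents descended from 1 imported population, in which some fish carried the w2 allele of *mitfa* (nacre), and that allele was present in some of the clutches. Embryos homozygous at *fmr1* also inherit 2 copies of the chromosome 14 stretch that came with the mutation, so that the effect of the mutation and the effect of linked alleles cannot be told apart by this comparison.

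*fmr1* encodes FMRP, an RNA-binding protein that restrains the translation of many neuronal mRNAs, and its loss in people causes fragile X syndrome. The genes beside it are of many kinds. They include SLITRK proteins that shape neurites and synapses, lysosomal enzymes, histone-modifying enzymes, subunits of the splicing machinery, and RNF4, which attaches ubiquitin to proteins that already carry chains of the small modifier SUMO. Neighbouring genes can share regulatory DNA, and alleles of neighbouring genes tend to be inherited together.

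Total counts lay between 29296538 and 33205738 per clutch, and the members held 0.617 to 0.748% of them. *fmr1* had 21.4 ± 2.02 CPM (counts scaled to a library of 1000000) in the mutant clutches against 49.9 ± 3.13 CPM in the wild type clutches (SD, n = 4 clutches per genotype). On the first principal component of all genes tested, wild type clutches A and D lay at 57.4 and 62.3 and the other 6 clutches between -42.5 and 4.23. Of the mutant clutches, S4 and S8 lay at -41.4 and -42.5, and S2 and S5 at -2.19 and 4.23. Of 16 tissue markers, 14 were found by symbol, none of these was at 0 in any clutch, and their summed level was 36197 to 51519 CPM in mutant clutches and 38664 to 51276 CPM in wild type clutches. The 3 markers with an unadjusted p under 0.05 were higher in the mutant clutches, namely *hbbe1.1* of red cells, *prss1* of the exocrine pancreas and *fabp10a* of the liver. In bulk RNA of whole embryos, fewer cells of a type and less RNA per cell cannot be told apart.

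The members were not shifted as a block. Their median log2 fold change (FC) of mutant over wild type was -0.01, against 0.02 over all genes tested, and 49.6% of them lay above 0. Calls were then counted in each direction. The quasi-likelihood test of edgeR gave an unadjusted p under 0.05 for 25 of the 125 members, or 20%, where 9.41% of all genes tested passed. Of these, 13 were higher in the mutant clutches (10.4% of the members, 4.22% of all genes) and 12 were lower (9.6% of the members, 5.19% of all genes). The 25 and the 12 include *itln3* and ENSDARG00000098415, which reached the minimum of counts only through the wild type clutches. The 13 include *si:ch211-277c7.6*, which reached it mainly through the mutant clutches, with over 1 count in only 1 wild type clutch. Among the other 680 genes of chromosome 14 that were tested the share was 17.6%, and among genes of other chromosomes it was 9.11%. These shares are descriptions, since the genes share their clutches and are not independent.

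Adjustment over all genes left no member at a false discovery rate (FDR) under 0.05 in the quasi-likelihood test with Benjamini-Hochberg adjustment, a level that 0.0127% of genes reached, and the FDR of the 25 members was 0.528 to 0.530. The likelihood-ratio test of edgeR with the same adjustment gave an FDR under 0.05 to 3 members, *rnf4*, *itln3* and ENSDARG00000098415 (0.132% of all genes). The last 2 reached the minimum of counts only through the wild type clutches, so that their calls are in part set by that selection. The Wald test of DESeq2 gave it to *rnf4* and *zgc:66433* (0.156% of genes with an adjusted value). A gene is therefore called higher or lower below on its unadjusted p alone, and whether its clutches overlapped is given beside the call.

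For 17 members (13.6%, against 4.28% of all genes) the 4 mutant clutches all lay on the same side of the 4 wild type clutches. Among the other 680 genes tested on chromosome 14 this share was 9.85%. Mutant clutches were above for 12 of the 17 members (1.78% of all genes) and below for 5 (2.5% of all genes). Of the 5, *itln3* and ENSDARG00000098415 had to differ to be kept by the minimum of counts. This leaves 3, so that no excess of lower members can be read from the separation. All 17 were among the 25. For each of the 17 the exact permutation test of log2 CPM, two-sided, gave 0.0286, which is the smallest value that 4 clutches against 4 allow. Separation of the clutches by itself gives this value, so the test adds nothing to it.

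**Figure D1:**
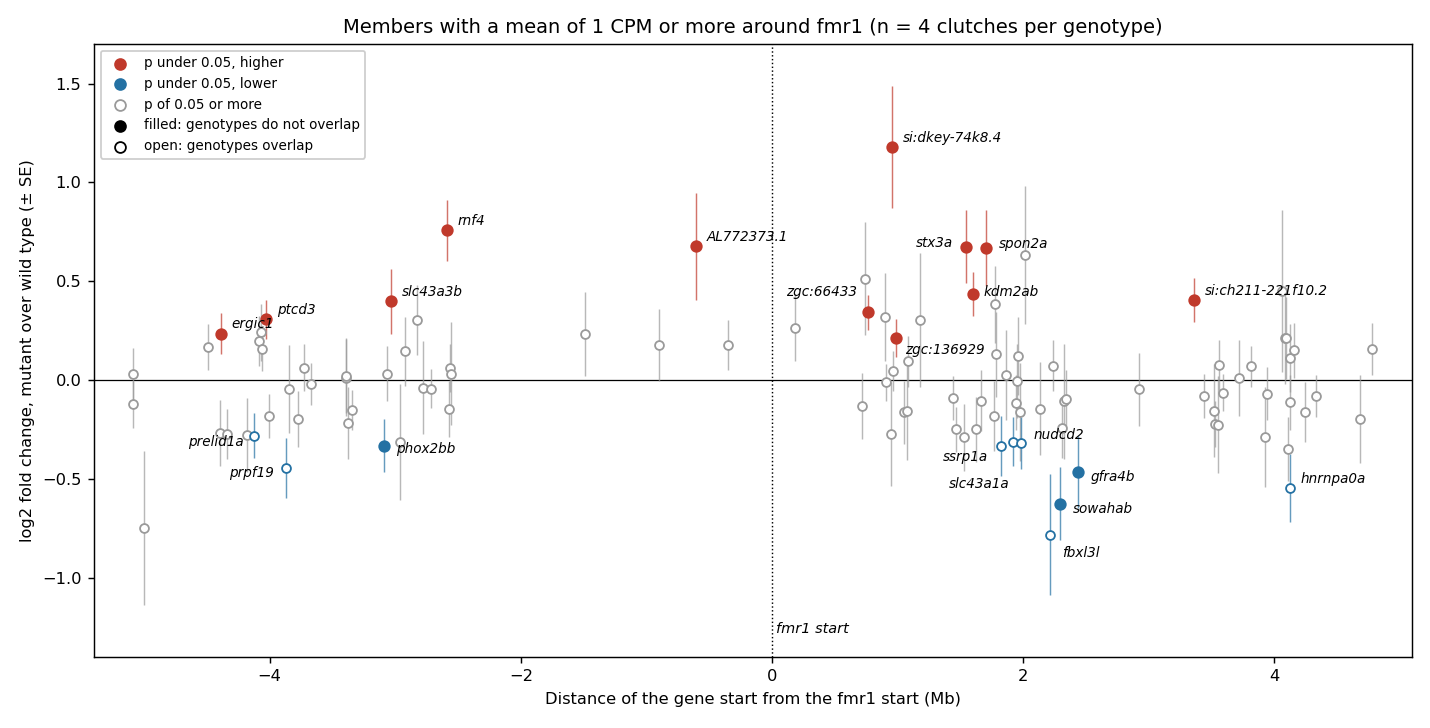
The log2 fold change of each member with a mean of 1 CPM or more (105 of 125), with its SE, is plotted against the distance of its start from that of *fmr1* in Mb. Red and blue mark an unadjusted p under 0.05 for higher and lower genes, and filled points mark genotypes that did not overlap. All marked members from *slc43a3b* to *spon2a* are higher, and all from *ssrp1a* to *gfra4b* are lower. The latter include the 5 of the window from 22 to 23 Mb. On either side of these 2 runs both directions occur. The ends of the runs were set where the direction changes, so that a uniform direction within them was built in. ENSDARG00000098415, which is lower and starts within the first run, is under 1 CPM and not plotted.

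Among the members with a role in protein turnover, *rnf4* (ENSDARG00000090993, reverse strand, 17566383 to 17576662), the SUMO-targeted ubiquitin ligase, had the lowest p. Positions given here are on chromosome 14 of GRCz11. It stood at 15.4, 13.7, 20.8 and 14.1 CPM in S2, S4, S5 and S8 (the mutant clutches, always given in this order) and at 9.57, 9.36, 9.06 and 9.89 CPM in the wild type clutches, in the order A, D, G, L. The wild type clutches were close together and every mutant clutch lay above them, with S5 the highest. The mutant mean was 169% of the wild type mean, and the log2 FC was 0.76 ± 0.15 (SE). It kept an unadjusted p under 0.05 whichever clutch was left out. The other marked member of this group was lower. *fbxl3l*, related to the F-box protein that in mammals directs cryptochromes to degradation, had 1.75, 1.46, 0.994 and 1.09 CPM in the mutant clutches in that order and 2.76, 1.30, 2.47 and 2.64 CPM in the wild type clutches. Clutch D lay within the mutant range, and the log2 FC was -0.78 ± 0.31. The remaining 8 of the 10 genes of protein turnover, which include *sqstm1* and *klhl3*, did not pass. Of all genes 9.41% passed.

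The genes of chromatin and transcription went both ways, with 2 higher and 2 lower of 21 (4.22% and 5.19% of all genes). Here and for the other roles, counts this small were not tested against the shares of all genes. *kdm2ab* (ENSDARG00000078133, forward strand, 21754521 to 21782227), related to the histone lysine demethylase KDM2A, had 108, 93.3, 114 and 91.4 CPM in S2, S4, S5 and S8. In A, D, G and L it had 76.4, 81.6, 73.2 and 69.5 CPM. Every mutant clutch lay above every wild type clutch, and the log2 FC was 0.44 ± 0.11 (95% interval 0.19 to 0.68). *zgc:136929*, named for the transcriptional corepressor CTBP1 in the name table, differed less, with 42.04, 43.1, 45.2 and 49.4 CPM in mutant clutches and 35.8, 39.5, 38.7 and 40.8 CPM in wild type clutches, a log2 FC of 0.21 ± 0.10. Its genotypes did not overlap, although the highest wild type clutch, L, lay close to the lowest mutant clutch, S2. *ctbp1* is also a member and had a log2 FC of -0.10 (95% interval -0.45 to 0.24).

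*phox2bb*, a homeodomain factor of autonomic and hindbrain neurons, was lower. It had 24.1, 18.8, 28.1 and 27.1 CPM in the mutant clutches and 33.5, 32.01, 28.99 and 29.1 CPM in the wild type clutches, so that the highest mutant clutch, S5, lay just under the lowest wild type clutch, G. Its log2 FC was -0.33 ± 0.14, and the long non-coding RNA named for it, *linc.phox2bb*, had a log2 FC of 0.03 (95% interval -0.27 to 0.34). *ssrp1a* encodes a subunit of FACT, the histone chaperone that lets polymerases pass nucleosomes. Its level was 97.3, 98.4, 135 and 80.1 CPM in the mutant clutches and 139, 125, 131 and 123 CPM in the wild type clutches. Clutch S5 lay inside the wild type range, the other 3 mutant clutches lay under it, and the log2 FC was -0.33 ± 0.15. The other 17 genes of this group, among them *med12*, *nr3c1* and *rnf20*, did not pass, with *kdm3b* at -0.25 (95% interval -0.50 to 0.00) and *DPF2* at -0.35 (95% interval -0.70 to 0.00) the closest to doing so.

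Genes of membrane traffic included 2 that were higher (4.22% of all genes) and none that was lower (5.19% of all genes), of 14. *stx3a* (ENSDARG00000001880, forward strand, 21699129 to 21751346) encodes a syntaxin, a SNARE protein that drives the fusion of vesicles with the plasma membrane. It had 13.6, 15.7, 10.9 and 15.4 CPM in S2, S4, S5 and S8 and 7.45, 6.85, 10.4 and 10.1 CPM in A, D, G and L. The lowest mutant clutch, S5, was just above the highest wild type clutch, G, and the log2 FC was 0.68 ± 0.18 (95% interval 0.27 to 1.08). *ergic1*, which encodes a cargo protein of the compartment between endoplasmic reticulum and Golgi, had 23.4, 24.2, 23.5 and 23.6 CPM in mutant clutches and 20.97, 17.6, 21.96 and 19.9 CPM in wild type clutches. The mutant clutches were nearly level and the log2 FC was 0.24 ± 0.11, which kept its p under 0.05 only when clutch G was left out.

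Among 10 secreted proteins, 1 was higher (4.22% of all genes) and 1 lower (5.19% of all genes). *spon2a* (ENSDARG00000025465, forward strand, 21861099 to 21901815) encodes a spondin, a protein of the extracellular matrix. It had 8.01, 12.8, 7.69 and 12.3 CPM in the mutant clutches and 6.33, 6.39, 6.75 and 6.19 CPM in the wild type clutches. The wild type values were nearly level, and among the mutant clutches S4 and S8 were high and S2 and S5 lay closer to the wild type. Clutches S4 and S8 also had the highest *prss1*, at 18.4 and 18.5 CPM against 8.01 CPM in S2 and 5.23 CPM in S5, and the highest *fabp10a*, at 4.88 and 7.59 CPM against 2.79 and 2.43 CPM. The part of these tissues in the result was not tested. The log2 FC of *spon2a* was 0.67 ± 0.19. Its relative *SPON2*, also a member, had a log2 FC of -0.04 (95% interval -0.56 to 0.48).

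*itln3* (ENSDARG00000003523, forward strand, 16345003 to 16352209), an intelectin, which is a secreted lectin that binds microbial sugars, was near the limit of detection. Its reads numbered 1, 1, 0 and 1 in the mutant clutches, in the order used above, and 9, 4, 9 and 5 in the wild type clutches. Summed over clutches and scaled by library size, the wild type level was 9.12 times the mutant level, with an exact 95% interval of 2.81 to 47.0 for counting error only. The gene ENSDARG00000098415, which had no name and lies 0.869 Mb after the start of *fmr1*, had 1, 1, 0 and 0 reads in mutants against 13, 18, 5 and 10 reads in the wild type. Its wild type level was 23.3 times the mutant level (exact 95% interval 6.10 to 198). Both genes passed the minimum of counts only through the wild type clutches, so that a difference between genotypes was built into their selection.

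Transporters held a pair from the same family that differed in opposite directions. *slc43a3b*, whose mammalian counterpart carries purine nucleobases, had 6.95, 8.31, 7.44 and 10.3 CPM in mutant clutches and 6.68, 5.73, 6.56 and 6.04 CPM in wild type clutches. S2 lay just above the highest wild type clutch, A, and S8 was the highest, with a log2 FC of 0.40 ± 0.17. *slc43a1a*, whose counterpart carries neutral amino acids, had 26.9, 26.9, 36.04 and 27.7 CPM in mutant clutches and 37.1, 39.7, 34.7 and 34.1 CPM in wild type clutches. S5 lay within the wild type range and the other 3 mutant clutches lay together beneath it, with a log2 FC of -0.31 ± 0.12. Of the 6 *slc43* genes tested across the genome these were the only ones with an unadjusted p under 0.05 (9.41% of all genes). The list includes these members, so their calls were in it from the outset. The *slc43* genes on other chromosomes had log2 FCs from -0.29 for *slc43a1b* to 0.38 for *slc43a3a*. *slc43a1a* overlaps *ssrp1a* on the other strand, and the counting used strand. Neither transporter passed without S4, S8 or D in turn, or without A and D together.

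The 4 mitochondrial genes included 1 that was higher (4.22% of all genes) and 1 that was lower (5.19% of all genes). *ptcd3* (ENSDARG00000103856), which in mammals belongs to the small subunit of the mitochondrial ribosome, had 39.1, 40.6, 47.96 and 45.9 CPM in mutant clutches and 33.3, 36.1, 35.7 and 35.1 CPM in wild type clutches. Every mutant clutch was above every wild type clutch and the log2 FC was 0.31 ± 0.10 (95% interval 0.08 to 0.53). *prelid1a*, which moves phosphatidic acid between the mitochondrial membranes, had 53.7, 45.7, 62.98 and 54.96 CPM in mutant clutches and 65.8, 60.9, 68.2 and 69.2 CPM in wild type clutches. S5 lay above clutch D, the lowest of the wild type, and the log2 FC was -0.28 ± 0.11.

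Several of the higher members had no known role. *zgc:66433* (ENSDARG00000071697, forward strand, 20918701 to 21001756) starts 0.762 Mb after *fmr1*. It had 42.4, 44.4, 47.3 and 43.5 CPM in S2, S4, S5 and S8 and 34.8, 34.9, 35.7 and 34.7 CPM in A, D, G and L. Both genotypes were tight and well apart, and the log2 FC was 0.34 ± 0.09 (95% interval 0.15 to 0.53). *si:dkey-74k8.4* (reverse strand, 21115029 to 21123588) had the largest log2 FC of the members of 1 CPM or more, 1.18 ± 0.31 (95% interval 0.50 to 1.86). Its level was 2.87, 3.55, 5.37 and 4.86 CPM in mutant clutches and 1.12, 1.497, 2.09 and 2.64 CPM in wild type clutches, without overlap, although S2 and L were close. It shares part of its span with a gene on the other strand, and the counting used strand.

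*si:ch211-221f10.2* had 27.5, 27.96, 24.99 and 23.8 CPM in mutant clutches and 20.6, 21.6, 18.9 and 17.7 CPM in wild type clutches, again without overlap, and a log2 FC of 0.40 ± 0.11. *AL772373.1* was at 1.32, 1.39, 1.77 and 1.29 CPM in mutant clutches and 0.899, 0.633, 1.09 and 0.981 CPM in wild type clutches, with a log2 FC of 0.68 ± 0.27. These genotypes did not overlap either. *si:ch211-277c7.6* passed on 14 counts summed over the mutant clutches against 4 over the wild type clutches, and its genotypes overlapped. The ratio was 3.45, with an exact 95% interval of 1.08 to 14.4 for counting error. All 4 mutant clutches but only clutch A of the wild type gave it over 1 count. Its call is thus in part set by the minimum of counts. It did not pass in the Wald test of DESeq2 (unadjusted p 0.13).

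**Figure D2:**
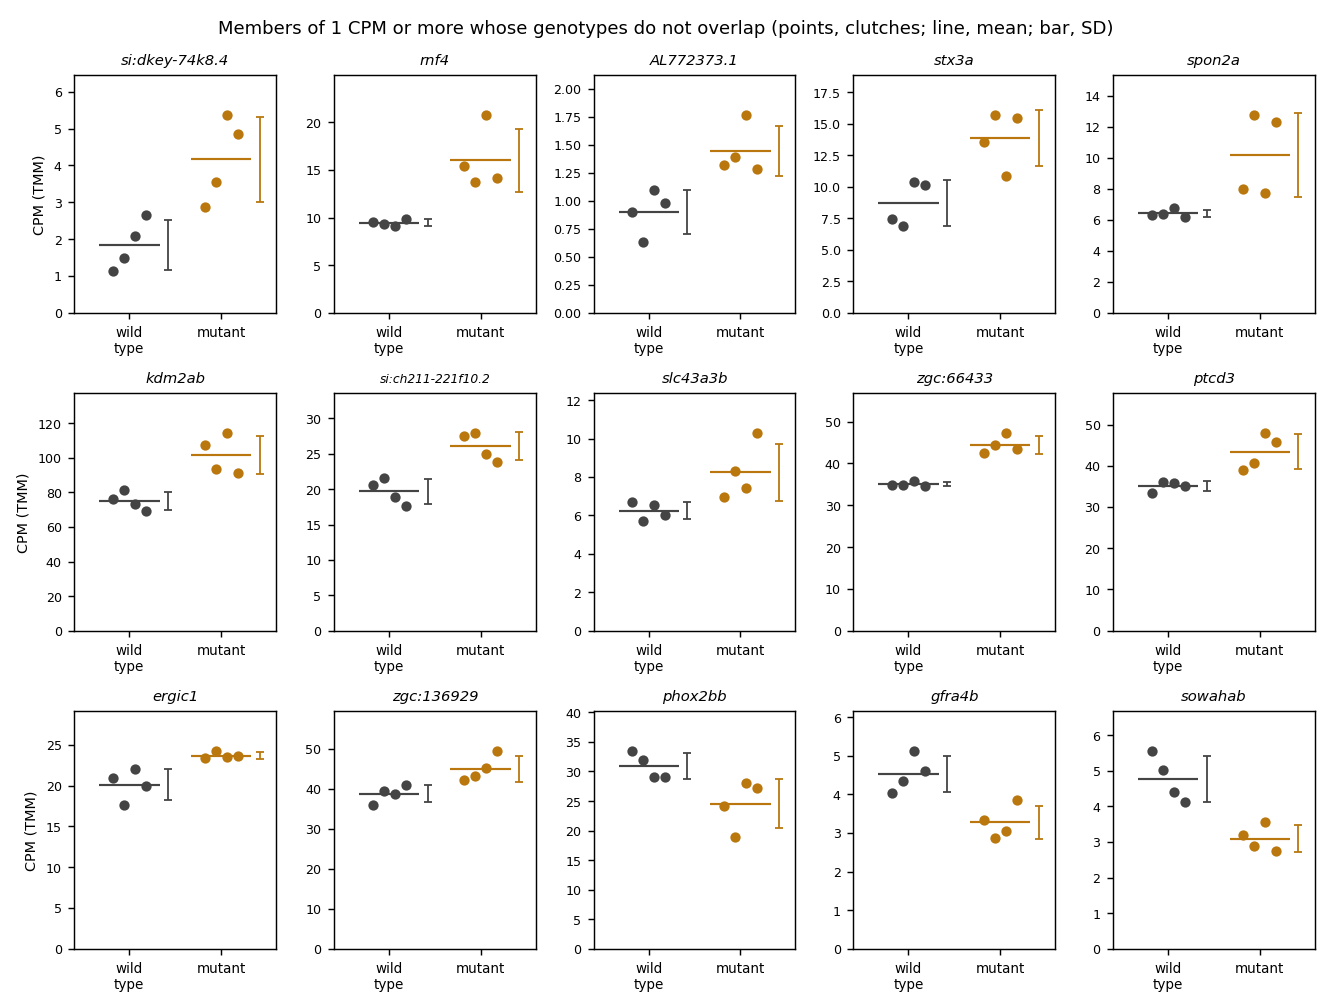
CPM after TMM scaling is plotted for each clutch of the 15 members of 1 CPM or more whose genotypes did not overlap, with wild type in grey and mutant in orange. Lines are means and bars are SDs over 4 clutches. In *zgc:66433* and *rnf4* the gap between genotypes is wide against the wild type spread, and in *zgc:136929*, *stx3a* and *phox2bb* the nearest clutches almost meet.

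The lower members (5.19% of all genes) included both of the splicing and RNA-binding proteins that passed, of 3 in the window. *hnrnpa0a* (ENSDARG00000089302, forward strand, 24277556 to 24279957), an abundant protein that coats nascent RNA, had 444, 359, 525 and 325 CPM in S2, S4, S5 and S8. In A, D, G and L it had 615, 690.2, 604 and 505 CPM. Clutch S5 lay above clutch L and the other mutant clutches lay under all wild type clutches, with a log2 FC of -0.55 ± 0.17 (95% interval -0.92 to -0.17). Part of its exons is shared on the same strand with *si:ch211-163m17.5*, and reads in that stretch could not be assigned with certainty. *prpf19* (forward strand, 16287968 to 16301402), the core ubiquitin ligase of the PRP19 splicing complex, had 90.4, 84.2, 132 and 84.1 CPM in mutant clutches and 140.1, 141, 125 and 125 CPM in wild type clutches. Here S5 stood with the wild type and the other 3 mutant clutches stood well under it, and the log2 FC was -0.44 ± 0.15 (95% interval -0.78 to -0.11).

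*sowahab*, an ankyrin repeat protein, was among the 5 lower members whose genotypes did not overlap. It had 3.19, 2.88, 3.57 and 2.73 CPM in mutant clutches and 5.56, 5.01, 4.41 and 4.11 CPM in wild type clutches, and a log2 FC of -0.63 ± 0.19 (95% interval -1.04 to -0.22). *gfra4b* encodes a co-receptor of the GDNF family that signals through the tyrosine kinase Ret. Of 14 receptors, channels and adhesion proteins it alone passed, where 9.41% of all genes did. Its level was 3.33, 2.88, 3.06 and 3.86 CPM in mutant clutches and 4.05, 4.35, 5.12 and 4.60 CPM in wild type clutches. S8, the highest mutant clutch, lay just under A, the lowest wild type clutch, and the log2 FC was -0.46 ± 0.18. *nudcd2*, a co-chaperone with a NudC domain, had 14.4, 13.9, 18.6 and 13.6 CPM in mutant clutches and 18.6, 17.4, 20.7 and 18.8 CPM in wild type clutches. S5 was again inside the wild type range, and the log2 FC was -0.32 ± 0.13.

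The overlap between genotypes among the lower members was mostly with clutch S5. Of the 7 lower members whose genotypes overlapped, S5 was the highest mutant clutch in 6, the exception being *fbxl3l*. Over all 125 members S5 was the highest mutant clutch in 51. S5 also held the most globin RNA, with *hbbe1.1* at 2748 CPM against 635 to 1125 CPM in the other mutant clutches and 353 to 1062 CPM in the wild type clutches, and the part of this in the result was not tested. Without S5, 33 members had an unadjusted p under 0.05, where 19.5% of all genes did (8.07% of all genes higher, the rest lower). Of the 33, 21 were shared with the full comparison, and 9 of the other 12 were lower, among them *ran*, *flt4*, *kdm3b* and *hspa4b*. For *prpf19* the log2 FC was then -0.62 and for *ssrp1a* -0.49. In both genes S5 was the highest mutant clutch, so that its omission had to make the log2 FC more negative.

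Clutches A and D, which stood apart on the first principal component, were examined in the same way. A or D was the highest wild type clutch in 9 of the 12 lower members, a count not set against the same share of all members. Both had more of the neuronal marker *elavl3*, at 439.6 and 434 CPM, than any other clutch (251 to 320 CPM). The other neuronal marker, *snap25a*, went the opposite way. It was lowest in A and D, at 139 and 142 CPM against 153 to 208 CPM elsewhere. Without A and D together 5.41% of all genes had an unadjusted p under 0.05, and 14 of the 25 members kept it (8 of 13 higher and 6 of 12 lower) and all 25 kept their direction. All 25 also kept their direction when each clutch was left out in turn, and 13 of them, 8 higher and 5 lower, then kept a p under 0.05 every time. The 8 were *rnf4*, *kdm2ab*, *zgc:66433*, *si:dkey-74k8.4*, *stx3a*, *si:ch211-221f10.2*, *spon2a* and *ptcd3*, and the 5 were ENSDARG00000098415, *itln3*, *sowahab*, *hnrnpa0a* and *prpf19*, of which the last 3 are free of the selection noted for the first 2. Of the other 12, *gfra4b* lost it without S4, G or L (log2 FC -0.53 to -0.40 over the 8 fits), *AL772373.1* without S5, A or D (0.55 to 0.78) and *phox2bb* without S2, S4, A or D (-0.40 to -0.22). The remaining 9 lost it without 5 to 7 of the clutches.

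**Figure D3:**
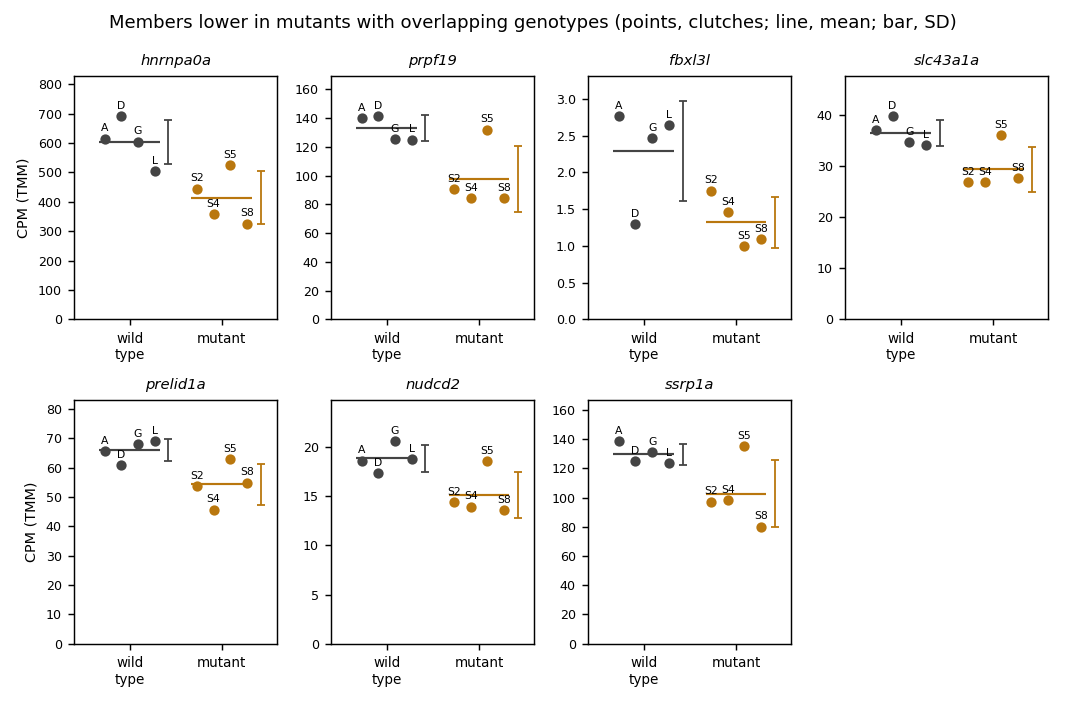
CPM after TMM scaling is plotted by clutch, each point named, for the 7 lower members whose genotypes overlapped, with wild type in grey and mutant in orange. Lines are means and bars are SDs over 4 clutches. In every panel but that of *fbxl3l* the point of S5 is the highest of the mutant clutches, and in these 6 panels it lies within the range of the wild type points.

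The genes next to *fmr1* were examined because SLITRK2, SLITRK4, AFF2 and IDS also neighbour FMR1 on the human X chromosome. The 5 members before *fmr1* were *slitrk4*, ENSDARG00000101918, *slitrk2*, *AL772373.1* and an unnamed gene, and the 5 after it were *aff2*, *ids*, *lygl1*, *lygl2* and *zgc:66433*. Only *AL772373.1* and *zgc:66433* of these 10 had an unadjusted p under 0.05 (9.41% of all genes), and both were higher. *slitrk2* and *slitrk4* encode transmembrane proteins that guide neurite growth and synapse formation. *slitrk2* had 7.55, 7.94, 7.03 and 7.49 CPM in mutant clutches and 5.17, 5.53, 7.59 and 8.30 CPM in wild type clutches, a log2 FC of 0.18 (95% interval -0.23 to 0.58). *slitrk4* had 10.1, 11.9, 8.39 and 14.02 CPM and 6.90, 8.26, 10.4 and 12.2 CPM, a log2 FC of 0.23 (-0.24 to 0.71). In both genes A and D were the lowest wild type clutches, and the genotypes overlapped.

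*aff2*, a nuclear factor of transcriptional elongation, had 16.97, 19.6, 11.4 and 13.8 CPM in mutant clutches and 11.9, 12.7, 13.9 and 13.02 CPM in wild type clutches. S5 lay under the wild type clutches and the other mutant clutches reached above them or among them, with a log2 FC of 0.26 (95% interval -0.11 to 0.64). *ids*, the lysosomal sulfatase that degrades heparan and dermatan sulfate, had 4.08, 4.06, 4.27 and 5.18 CPM and 4.53, 4.55, 5.16 and 5.06 CPM, a log2 FC of -0.13 (-0.50 to 0.23). The intervals of *ids*, *aff2* and both *slitrk* genes each hold a change of the size seen for *kdm2ab*, in the lower direction for *ids* and the higher for the others, so that their lack of a call does not show that they were unaffected. *lygl1*, a goose-type lysozyme, had 6.52, 4.88, 9.28 and 12.8 CPM in mutant clutches and 5.56, 4.40, 6.37 and 7.10 CPM in wild type clutches (95% interval -0.11 to 1.14), and its relative *lygl2* had at most 0.128 CPM in any clutch.

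**Figure D4:**
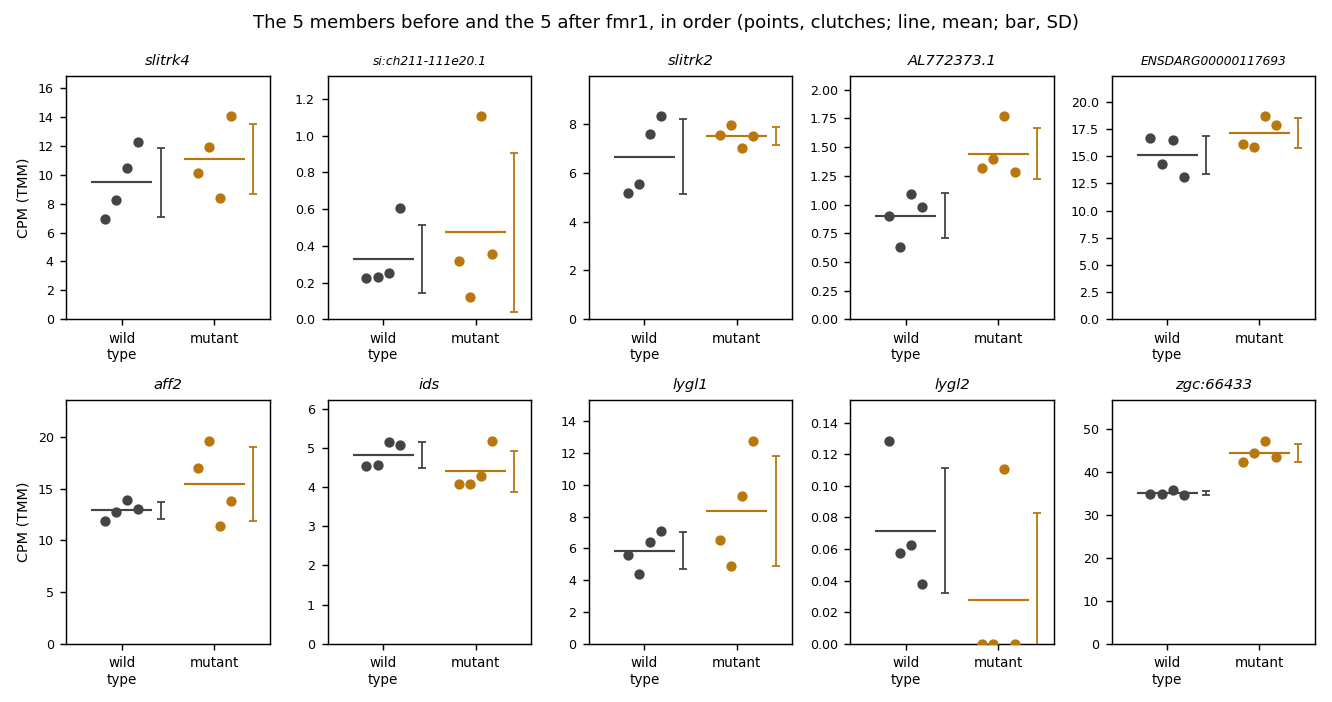
CPM after TMM scaling is plotted by clutch for the 5 members before and the 5 after *fmr1*, in the order of their starts, with wild type in grey and mutant in orange, lines for means and bars for SDs over 4 clutches (bars stop at 0). Only in *AL772373.1* and *zgc:66433* do all mutant points lie above all wild type points.

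Distance from *fmr1* was set beside the calls as a description. The shares to set beside these counts are 9.41% of all genes tested and 17.6% of the other genes tested on chromosome 14. No distance, window or strand was tested against them. Within 1 Mb of its start 5 of 15 members passed, from 1 to 2 Mb 6 of 29, and further away 14 of 81. Of the 5, 4 were higher, and the 1 lower was ENSDARG00000098415, which reached the minimum of counts only through the wild type clutches. By 1 Mb window the most were found from 21 to 22 Mb, where 7 of 26 members passed, 5 of them higher (*si:dkey-74k8.4*, *zgc:136929*, *stx3a*, *kdm2ab* and *spon2a*). The next window, 22 to 23 Mb, held 5 of 18, and all of these were lower (*nudcd2*, *fbxl3l*, *sowahab*, *gfra4b* and *slc43a1a*). The other 2 members called from 21 to 22 Mb, ENSDARG00000098415 and *ssrp1a*, were lower. In the order of starts, every called member of 1 CPM or more from *slc43a3b* to *spon2a* was higher. Every such member from *ssrp1a* to *gfra4b* was lower. Before *slc43a3b* and after *gfra4b* both directions occurred. The ends of these 2 runs were set where the direction changed, so that a uniform direction within them was built in. ENSDARG00000098415, which starts within the first run, is left out of it by the limit of 1 CPM. Over all members, called or not, the median log2 FC was -0.05 from 21 to 22 Mb and -0.13 from 22 to 23 Mb. From 16 to 17 Mb there were 4 of 18, of which *prpf19*, *itln3* and *prelid1a* were lower and *ptcd3* higher. On the forward strand 16 of 70 members passed, and on the reverse strand 9 of 55. At the edges of the window, *NKX1-1* and *ppargc1b* just inside had log2 FCs of -0.12 and 0.16, and *ccdc142* and *PDE6B* just outside had -0.15 and 0.49.

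Some small classes of members held no call. None of 7 metabolic and lytic enzymes and none of 4 genes of DNA repair and cell cycle had an unadjusted p under 0.05, counts too small to be set against the 9.41% of all genes. Of the 100 members without a call, 70 had a log2 FC of less than 0.25 in size. For those of 1 CPM or more the median half-width of the 95% interval was 0.37, so that smaller differences may have gone undetected with 4 clutches per genotype. The abundant members per kilobase of exon included *ran*, the GTPase of nuclear transport, at 460.3 CPM per kb, *ccng1*, which encodes cyclin G1, at 361, *hnrnpa0a* at 212 and *canx*, the chaperone calnexin, at 102. Of these only *hnrnpa0a* passed.

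The level of *ran* was 579.5, 523, 875 and 573 CPM in mutant clutches and 824, 804, 735 and 754 CPM in wild type clutches, so that S5 lay above all wild type clutches and the other 3 mutant clutches under them. Its log2 FC was -0.29 ± 0.17 with all clutches and -0.48 without S5. A shift in this direction follows from leaving out the highest mutant clutch. By its CPM of *ran*, S5 stood apart from the other mutant clutches. *canx* was steady, with 451, 433, 469 and 405 CPM in mutant clutches and 382, 395, 459 and 446 CPM in wild type clutches and a log2 FC of 0.06 (95% interval -0.20 to 0.32). *ccng1* had 661, 585, 779.5 and 1272 CPM and 866, 975, 707 and 1143 CPM, highest in S8 and L.

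Among members above 1 CPM, those that varied most between clutches of the same genotype were *stc2a*, *egr1* and *gabrb2a*. *stc2a*, which encodes the glycoprotein hormone stanniocalcin, had 6.69, 6.22, 10.2 and 26.8 CPM in mutant clutches and 10.9, 9.13, 7.84 and 8.68 CPM in wild type clutches, so that S8 alone was high. *egr1*, an immediate early transcription factor, had 17.7, 22.8, 30.99 and 21.6 CPM in mutant clutches and 10.1, 10.5, 25.9 and 29.1 CPM in wild type clutches. A and D were low, G and L were high, and all mutant clutches but S5 lay between them. *gabrb2a*, a subunit of the GABA-A receptor, had 4.34, 7.06, 3.50 and 5.43 CPM and 2.31, 1.67, 4.47 and 4.72 CPM, again lowest in A and D.

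Relatives of the marked members elsewhere in the genome were compared from lists of named genes. Each list includes the marked member whose relatives it names, so that the call of this member was in the count from the outset. RNF4 acts on proteins that carry SUMO, a modifier that is attached by an E1 (*sae1*, *uba2*), an E2 (*ube2ia*, *ube2ib*) and E3 ligases (*pias* genes) and removed by SENP proteases. Of 25 genes listed, *rnf4* included, 23 were tested. Among these, 2 were higher (4.22% of all genes) and 11 were lower (5.19% of all genes) at an unadjusted p under 0.05. None passed an FDR of 0.05 in the quasi-likelihood test of edgeR, and the median log2 FC was -0.28 against 0.02 over all genes. Besides *rnf4*, *pias1a* was higher, at 0.43 ± 0.17. The lower genes included *sumo3b* at -0.48 ± 0.17, *sae1* at -0.47 ± 0.16, *ube2ia* at -0.29 ± 0.11, *pias4a* at -0.33 ± 0.11 and *senp2* at -0.38 ± 0.11. SAE1 and UBA2 together form the E1, and SENP2 cleaves SUMO from its targets. *rnf111*, the other ligase of this type on the list, had a log2 FC of 0.05 ± 0.09. The count of 13 moved with the clutches used. It was 6, 7, 16 and 7 without S2, S4, S5 and S8 in turn, where 6.5, 6.43, 19.5 and 5.3% of all genes passed. Without A, D, G and L in turn it was 9, 8, 11 and 10, where 4.8, 5.83, 8.49 and 11.3% of all genes passed. Without A and D together it was 3 (2 higher and 1 lower), where 5.41% of all genes passed, and the median log2 FC was then -0.22.

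**Figure D5:**
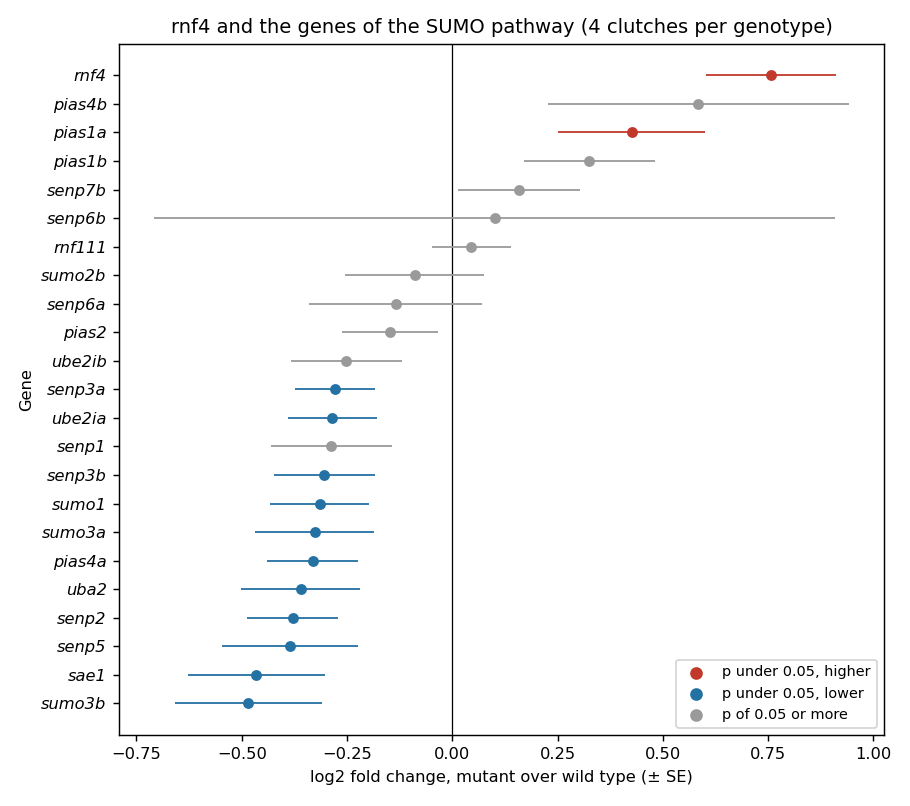
The log2 fold change of mutant over wild type, with its SE, is plotted for *rnf4* and the other 22 tested genes of the SUMO pathway, 4 clutches per genotype. Red and blue mark an unadjusted p under 0.05. *rnf4* has the largest value and 11 genes lie to the left in blue.

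The relatives of *hnrnpa0a* were compared in the same way. Of 9 symbols listed for the hnRNP A and A/B type 7 were found and tested, and of these 4 were lower (5.19% of all genes) and none higher (4.22% of all genes) at an unadjusted p under 0.05. They were *hnrnpa0a*, *hnrnpa0l*, *hnrnpaba* and *hnrnpabb*, and the median log2 FC of the 7 was -0.40. Both *hnrnpa0l* (-0.47 ± 0.19) and *hnrnpaba* (-0.46 ± 0.17) are on chromosome 14 outside the window, and *hnrnpabb* (-0.40 ± 0.15) is on chromosome 21. These proteins bind nascent transcripts and influence their splicing. Without A and D together none of the 7 passed, and their median log2 FC was -0.25. Leaving out single clutches gave 2 calls without S2, 1 without S4, S8, A or D, and 4 without G. There were 5 without L, 4 lower and 1 higher, and 6 without S5, where 19.5% of all genes passed. Without any other single clutch 4.8% (A) to 11.3% (L) of all genes passed. Of the genes without a call, *hnrnpa3* had a log2 FC of 0.31 ± 0.20 and *hnrnpa1a* -0.15 ± 0.15. *hnrnpa0b*, also on chromosome 14 outside the window, had -0.34 ± 0.16.

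Of the 3 FACT genes, *ssrp1a* alone passed (9.41% of all genes). Its partner in the complex, *supt16h*, had -0.27 ± 0.14, while the second copy *ssrp1b* had 0.40 ± 0.21. Without S5, where 19.5% of all genes passed, all 3 did, 1 higher and 2 lower, and *ssrp1a* kept its call only when S5 was the clutch left out. Of 8 genes of GDNF receptors, *gfra4b* alone passed (9.41% of all genes), and it did not pass without S4, G or L. Its relative on the same chromosome outside the window, *gfra3*, had -0.26 ± 0.22, and the shared receptor *ret* had 0.13 ± 0.13.

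The 34 genes of the window that did not reach the minimum of counts were not tested. Of these, 19 had no count in any library, and 4 had more than 1 count in 3 libraries. They included 10 *spink2* genes, 4 *pimr* genes and 4 genes of 5S rRNA.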

How the data were processed

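RNA-seq was performed on polyA-selected, strand-specific libraries of 8 clutches. According to the study's methods, the labels' processing notes and the file header, the authors trimmed the reads, aligned them to GRCz11 by STAR (2.5.3a) and ran featureCounts (1.5.2) on reads of mapping quality 10 or more, lying within the exons of a gene on its strand. Reads shared by near-identical copies were thereby mostly left out. The deposited values were raw counts of reads per gene, without normalisation, and depth per clutch is given with the description of the data. PCR duplicates were not removed by molecular identifiers, so intervals on counts cover counting error only.

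From these counts, genes were kept where 4 or more libraries gave over 1 count, as the study words its filter. This kept 23567 genes, more than the study reports for its own filter. They were normalised by TMM and compared between genotypes over the whole table with the quasi-likelihood test of edgeR (4.0.16) in R (4.3.3), with Benjamini-Hochberg adjustment over all genes. Simulated data with known changes were used to test the fit. CPM values are after TMM, a prior count of 2 was used for log2 CPM, and exact permutation tests ran over the 70 arrangements of clutches. The members and the lists of genes were chosen with earlier results of these data known. Named were every member with an unadjusted p under 0.05 or an FDR under 0.05 by the likelihood-ratio test, *rnf4* and *zgc:66433*, the 5 members on either side of *fmr1*, the 5 most abundant per kilobase (1 of these is not reported here), the 3 most variable above 1 CPM, and members of the family lists. Other members were named after their values were seen. Alternatives were the likelihood-ratio test, DESeq2 (1.42.0), limma-voom (limma 3.58.1), other normalisations and filters, the replicate number as a block, and leaving out clutches. Bias-adjusted deviances for the quasi-likelihood fit and the omission of both A and D were choices made after seeing the data. Symbols came from the name table, RefSeq and the study's gene list, and no sequences were used.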

Additional observations from a re-analysis of the deposited data

Results flagged for a closer look

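In 80 sets of 4 clutches (40 named members, each genotype taken apart), 7 had a clutch whose gap to the nearest other clutch was a larger part of the whole range than the 95% critical value of Dixon's test for 4 values allows. Chance gives about 1 in 20 only for independent sets of normally distributed values. The genes here share their clutches, and many were named for their values. The 7 can therefore not be set against that rate, and no excess of outlying clutches is read from them.

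Clutch S5 was the clutch in 6 of the 7. It was high among the mutant clutches in *prpf19* (132 CPM, next 90.4 CPM), *ran* (875 CPM, next 579.5 CPM), *slc43a1a* (36.0 CPM, next 27.7 CPM) and *nudcd2* (18.6 CPM, next 14.4 CPM). In *lygl2* it was at 0.110 CPM where the other mutant clutches were at 0, and in *itln3* it was at 0 CPM where the next was at 0.0287 CPM, which is 1 count. Clutch L was the highest wild type clutch in ENSDARG00000101918, at 0.604 CPM against 0.25 CPM for the next. *lygl2* and *itln3* are near the limit of detection, since 3 counts are worth at most 0.110 CPM in a mutant clutch and 0.113 CPM in a wild type clutch.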

How the results depend on the processing

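At an unadjusted p under 0.05, 25 members and 2218 of all genes passed in the main fit. The likelihood-ratio test gave 24 members (2223 of all genes), DESeq2 26 (2467) and limma-voom 26 (2357). RLE and upper quartile normalisation each gave 25 (2238), TMM without chromosome 14 genes 25 (2214), and bias-adjusted deviances 26. The count was 21 of 105 members with a filter of more than 1 CPM, 22 of 112 with filterByExpr and 22 without a filter. For bias-adjusted deviances and these filters the share of all genes is not given here. Without clutches A and D 17 members passed, where 5.41% of all genes did. The count with an FDR under 0.05 was 3 in the likelihood-ratio fit and 2 with DESeq2, against 0 here. The members whose genotypes did not overlap numbered 30 without A and D, where 15.1% of all genes separated. With each clutch left out in turn, 17 to 33 members had a p under 0.05, where 4.8% (A) to 19.5% (S5) of all genes did. From 17 to 35 members separated (35 without S5, where 19.2% of all genes did). In each of the 8 edgeR fits 0 members had an FDR under 0.05. The median log2 fold change of the members lay between -0.02 and 0.01. For the 25 members taken singly, with clutches left out 152 values stayed under a p of 0.05 and 73 did not, in other settings 250 did and 19 did not, none changed sign, and 8 members stayed under it in every setting. *itln3* and ENSDARG00000098415 stayed under it wherever they were tested, but both stricter filters removed them.

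Whether the replicate numbers of the labels pair the clutches was not settled. Same-numbered clutches were not set against differently numbered ones. Deviations of same-numbered clutches from their genotype means correlated at 0.25, -0.21, -0.01 and 0.18. With the number as a block 24 members had a p under 0.05, 21 of the 25 among them, where 9.43% of all genes passed.

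Each genotype had 4 clutches, and the values of the members under 1 CPM (20 of 125) rest on few counts. Linked alleles and the mutation cannot be told apart.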

Other observations

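Among the 20 members under 1 CPM were 5 receptors and receptor-associated proteins of neurons, chosen here after their values were seen. *gabra6a*, a subunit of the GABA-A receptor that lies beside *gabrb2a*, gave 18, 45, 2 and 14 reads in mutants S2, S4, S5 and S8, and in A, D, G and L it gave 5, 0, 10 and 13. Its counts followed the order of *gabrb2a* loosely, lowest in S5 among the mutant clutches and in A and D among the wild type clutches, and it did not pass (log2 FC 1.36, 95% interval -0.58 to 3.30). *kctd16a*, an auxiliary protein of GABA-B receptors in mammals, gave 42, 39, 13 and 20 reads in mutants and 14, 20, 19 and 7 in the wild type. Its log2 FC was 0.89 (95% interval -0.01 to 1.79). *kctd16a* did not pass on all clutches, but had an unadjusted p under 0.05 in the likelihood-ratio test and without S5 or S8 in turn.

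The dopamine receptor gene *drd1a* had 1 to 8 counts per clutch, the muscarinic receptor gene *chrm1a* 0 to 4 and the neuropeptide Y receptor gene *npy7r* 0 to 5. The genotypes overlapped in each. The cytokine gene *il4* gave 4, 0, 0 and 7 reads in mutants and 0, 4, 2 and 2 in the wild type. None of these 4 genes had a p under 0.05 in the quasi-likelihood test of edgeR on all clutches. *npy7r* did in the likelihood-ratio test and without S5 or L in turn, and L was the only wild type clutch with reads of it.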
